A study of Mus musculus with 12 samples.

Results

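The genes described here encode the subunits of the oxidative phosphorylation machinery that are made from nuclear DNA, together with a few factors whose symbols share the same stems. They were taken by symbol, as protein-coding genes off the mitochondrial chromosome whose names begin with Nduf and a subunit letter, Sdha to Sdhd, Uqc, Cox4 to Cox8, or Atp5. This gave 90 of 25683 genes: 38 of complex I, 4 of complex II, 11 of complex III, 19 of complex IV and 18 of complex V. RNA was measured as exon reads per gene in J774.1 cells, a macrophage-like mouse line labelled as BALB/c. The 6 groups were GATA3-KO cells with isorhamnetin, GATA3-KO cells with DMSO, Rictor-KO cells with isorhamnetin, Rictor-KO cells with DMSO, WT cells with isorhamnetin and WT cells with DMSO. Isorhamnetin, a methylated plant flavonol, was given at 10 µM, treatment lasted 6 h, and each group held 2 libraries, 12 in all. GATA3 is a zinc-finger transcription factor best known for its role in T cells, and Rictor belongs to mTORC2, a growth-factor-regulated kinase. Each knockout is named as 1 line, so the loss of the gene and the history of the line cannot be told apart. The labels do not say that the 2 libraries of a group came from separate cultures, so the p-values measure a spread that may be technical.

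Oxidative phosphorylation passes electrons from NADH (complex I) and succinate (complex II) through coenzyme Q to complex III, and on through cytochrome c to complex IV, which reduces oxygen. The symbols Uqcc1, Uqcc2 and Uqcc3 mark assembly factors of complex III rather than subunits, and they are counted with it. Complexes I, III and IV pump protons across the inner mitochondrial membrane, and complex V, the ATP synthase, lets them return while it makes ATP. A small number of core subunits are encoded in mitochondrial DNA, and complex II has none of these. Macrophages are known to shift between oxidative phosphorylation and glycolysis when they are activated, and complex II links the machinery to the tricarboxylic acid cycle.

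The libraries held 35671457 to 53099804 exon reads. The targeted genes were examined first: Rictor stood at 34.3 and 31.2 CPM (the reads of a gene as a share of the TMM-scaled library total) in Rictor-KO with DMSO, at 36.2 and 32.3 CPM in GATA3-KO and at 60.8 and 63 CPM in WT. Gata3 was hardly expressed in any line, with 11 and 12 reads in GATA3-KO with DMSO, 26 and 13 in Rictor-KO and 39 and 57 in WT. A lowered but present mRNA does not check a small deletion, so the labels stand as given. Of 10 macrophage markers 9 exceeded 1 CPM, and their sum was 2590 and 2640 CPM in GATA3-KO with isorhamnetin, 3100 and 3240 CPM in GATA3-KO with DMSO, 3200 and 5360 CPM in Rictor-KO with isorhamnetin, 3030 and 5290 CPM in Rictor-KO with DMSO, 6370 and 7000 CPM in WT with isorhamnetin and 10800 and 11000 CPM in WT with DMSO. The sum was thus lower than in WT with DMSO in every other group, not in GATA3-KO alone. Markers of T cells, B cells, fibroblasts and neutrophils summed to at most 0.358 CPM, and epithelial markers had 0 reads. In bulk RNA, fewer cells that hold a transcript and less of it per cell cannot be told apart. TMM factors were 0.912 and 0.913 in WT with DMSO and 0.992 to 1.05 in the other 10 libraries.

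The members together held the largest share of the exon reads in GATA3-KO cells. Their share was 1.67% and 1.81% in GATA3-KO with isorhamnetin and 1.43% and 1.6% in GATA3-KO with DMSO. It lay between 1.3% and 1.36% in the 4 Rictor-KO libraries, at 1.16% and 1.18% in WT with isorhamnetin, and at 1.1% and 1.11% in WT with DMSO. Of the 90 members, 83 had enough reads to be tested: 37 of complex I, all 4 of complex II, all 11 of complex III, 14 of complex IV and 17 of complex V. Between 99.85% and 99.91% of their reads were uniquely mapped. Per kilobase of exon, the tested members ranged in mean level from 0.387 RPKM for Cox4i2, a subunit isoform known from lung, to 974 RPKM for Atp5b, the catalytic beta subunit of the ATP synthase. The median RPKM was 67.1 in complex I, 106 in complex II, 132 in complex III, 166 in complex IV and 159 in complex V.

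Summed by complex, the GATA3-KO libraries stood above those of the other lines in every complex. Complex I summed to 3820 and 4269 CPM in GATA3-KO with isorhamnetin, 3227 and 3694 CPM in GATA3-KO with DMSO, 2605 to 2753 CPM in the 4 Rictor-KO libraries and 2479 to 2592 CPM in the 4 WT libraries. Complex III summed to 1854 and 2126 CPM in GATA3-KO with isorhamnetin, 1572 and 1792 CPM in GATA3-KO with DMSO, 1295 to 1360 CPM in Rictor-KO and 1169 to 1271 CPM in WT. Complex IV likewise held 2476 to 3466 CPM in GATA3-KO, 2103 to 2292 CPM in Rictor-KO and 1839 to 2068 CPM in WT. The steps were smaller in complex V, with 6049 to 7233 CPM in GATA3-KO, 5530 to 5910 CPM in Rictor-KO and 5137 to 5588 CPM in WT. Complex II summed to 920 to 1037 CPM in GATA3-KO, 814 to 856 CPM in Rictor-KO and 692 to 781 CPM in WT. No GATA3-KO library overlapped a library of another line in any of the 5 sums.

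**Figure D1:**
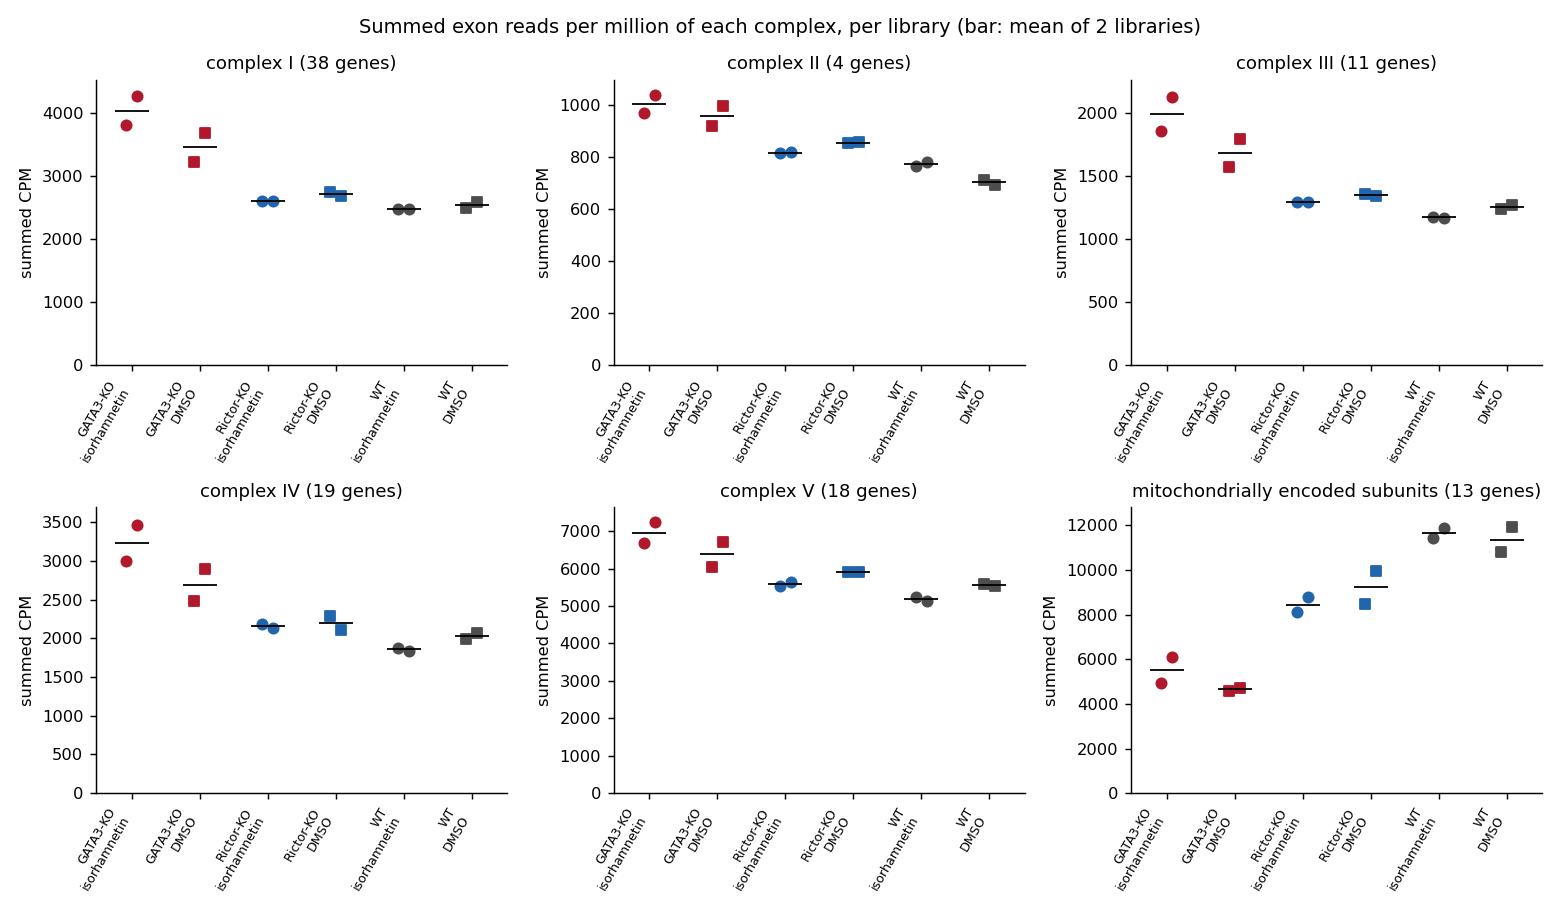
Summed CPM of the members of each complex, and of the 13 mitochondrially encoded subunits, with 1 point per library, squares for DMSO, circles for isorhamnetin and a bar at the mean of 2 libraries. In each nuclear-encoded panel the 4 GATA3-KO libraries lie highest, while the mitochondrially encoded sum lies lowest there, at 4561 to 6112 CPM.

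The nuclear and the mitochondrially encoded subunits stood in opposite order across the lines. The 13 mitochondrially encoded subunits summed to 4561 and 4733 CPM in GATA3-KO with DMSO, 8476 and 9973 CPM in Rictor-KO and 10792 and 11947 CPM in WT. In GATA3-KO against WT, 12 of the 13 fell and 0 rose, with a median log2 fold change of -1.24, where 27.1% of all tested genes were lower. The steepest fall was that of mt-Atp6, a membrane subunit of the ATP synthase, with 335 and 339 CPM in GATA3-KO and 1970 and 1970 CPM in WT. In Rictor-KO against WT, 4 fell (30.8%) and 0 rose, with a median of -0.27. Over all tested genes 20.7% were lower there and 40% were called in either direction.

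A trend with gene length ran through the same libraries and is given before the comparisons, because the members are short. The tested members had a median exon length of 1001 bases, against 3391 bases over all 11808 tested genes. A library's deviation is taken here as the median, over a set of genes, of the log2 level minus that gene's mean over the 12 libraries. For the members it was 0.39 and 0.58 in GATA3-KO with isorhamnetin, 0.10 and 0.33 in GATA3-KO with DMSO, -0.16 to -0.06 in Rictor-KO and -0.26 to -0.13 in WT. For all 496 tested genes of up to 1000 bases, the members among them included, it was 0.29 and 0.43 in GATA3-KO with isorhamnetin, 0.08 and 0.26 in GATA3-KO with DMSO, and below 0 in the other 8 libraries. The members and the short genes thus put the 4 GATA3-KO libraries in the same order. The members stood farther from 0 than the short genes in each of those 4. Genes over 4000 bases deviated the other way, from -0.24 to -0.04 in GATA3-KO. The share of intron reads was 6.2% and 6.72% in GATA3-KO with isorhamnetin, 5.45% and 5.86% in GATA3-KO with DMSO and 6% to 7.42% in the other 8 libraries. It put the 4 GATA3-KO libraries in the same order as the deviations of the members and of the short genes, and the other 8 libraries, whose deviations were below 0, overlapped them in intron share. Its part in the members' levels was not tested. For the members, comparisons with GATA3-KO are therefore given with this trend in place and again with it taken out. It was taken out by a smooth curve of level against exon length in each library. The mitochondrially encoded subunits, the assembly factors and the other related genes are given with the trend in place only.

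**Figure D2:**
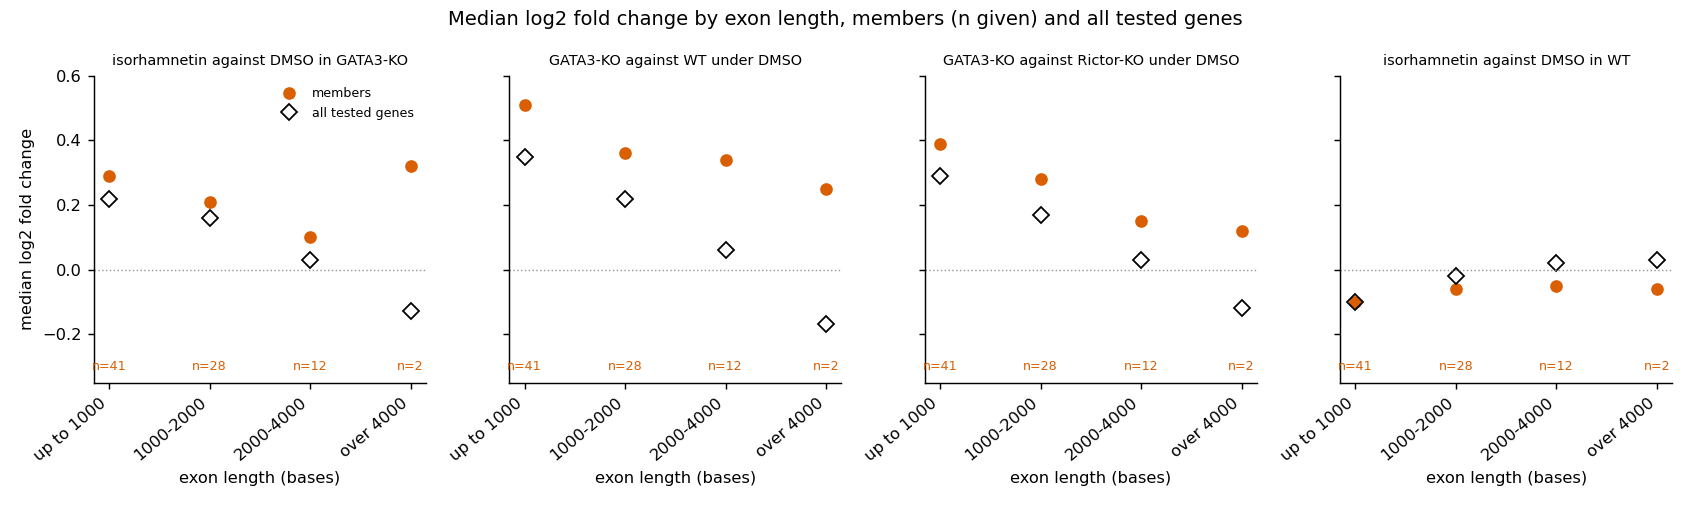
Median log2 fold change of all tested genes (open diamonds) and of the members (filled points, number given as n) in 4 classes of exon length, for 4 comparisons. In the 3 comparisons that involve GATA3-KO the medians of all genes decline from the shortest to the longest class, with 0.35 and -0.17 at the ends in GATA3-KO against WT, and the members lie above them in each class, of which the longest holds 2 members.

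The comparisons of lines and the responses share their DMSO libraries, so they are not independent of each other. The comparison of GATA3-KO with WT under DMSO asks how the 2 lines differ without the compound. In GATA3-KO 80 of 83 tested members had a positive log2 fold change, 58 rose and 1 fell, with a median log2 fold change of 0.41. This was 71.1% of the members, beside 53.9% called among all tested genes, with 26.8% higher and 27.1% lower. By complex, 30 of 37 members rose in complex I (median 0.43), 2 of 4 in complex II (0.28), 9 of 11 in complex III (0.52), 8 of 14 in complex IV (0.35) and 9 of 17 in complex V (0.28). With library totals alone as the scale 71 rose and 0 fell, with a median of 0.54 where that of all genes was 0.13. With the length trend taken out, 32 rose and 7 fell, and the median was 0.14. Of all 11808 tested genes 2866 were higher and 3293 lower in that fit. Calls are edgeR quasi-likelihood F tests with a Benjamini-Hochberg adjusted p under 0.05 over all tested genes.

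In complex I, all 7 core subunits, which carry the flavin and the iron-sulfur clusters, rose in GATA3-KO, with a median of 0.42. Ndufv2, a core subunit that binds an iron-sulfur cluster, had 178 and 207 CPM in GATA3-KO with DMSO, against 99.4 and 95.3 CPM in WT with DMSO (log2 fold change 0.98, SE 0.10, adjusted p = 2.53e-06). Ndufv3, an accessory subunit of the NADH-oxidizing tip, had 70.3 and 76 CPM in GATA3-KO and 28.5 and 26.4 CPM in WT (1.41, SE 0.10, adjusted p = 7.52e-08). For both genes, each GATA3-KO library was above each WT library, which naming them by small p makes likely. Ndufv3 lies at chr17:31520115-31531331 and Ndufv2 at chr17:66078638-66101559 (GRCm38). Of the 30 other subunits of complex I, 23 rose and 1 fell, with a median of 0.45. Ndufb10, an accessory subunit of the membrane arm, had 100 and 115 CPM in GATA3-KO and 56.7 and 58.2 CPM in WT (0.91, SE 0.09, adjusted p = 1.67e-06). The exception was Ndufa10, an accessory subunit of the matrix side, with 115 and 118 CPM in GATA3-KO and 148 and 144 CPM in WT (-0.33, SE 0.08, adjusted p = 0.00374). Ndufa10 was the member that fell in both knockout lines.

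Complex II showed subunits of 1 enzyme moving unequally. Sdhd, a membrane anchor, had 356 and 425 CPM in GATA3-KO with DMSO and 202 and 205 CPM in WT with DMSO (log2 fold change 0.94, SE 0.10, adjusted p = 4.17e-06). Its gene lies at chr9:50596357-50603812 (GRCm38). Sdhb, the iron-sulfur subunit, had 136 and 153 CPM in GATA3-KO and 109 and 111 CPM in WT (0.39, SE 0.08, adjusted p = 0.00133). The flavoprotein subunit Sdha, with 303 and 283 CPM in GATA3-KO and 268 and 253 CPM in WT, did not pass the test (0.17, SE 0.08, adjusted p = 0.103). Sdhc, the other anchor, stood at 125 and 135 CPM in GATA3-KO and overlapped the 134 and 122 CPM of WT (log2 fold change 0.02). The exon length is 1231 bases for Sdhd and 1142 for Sdhb, but 2900 for Sdha and 3250 for Sdhc. With the length trend taken out, given below, Sdhd remained among the larger rises. How far length enters the contrast of these genes was not tested beyond that fit.

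**Figure D3:**
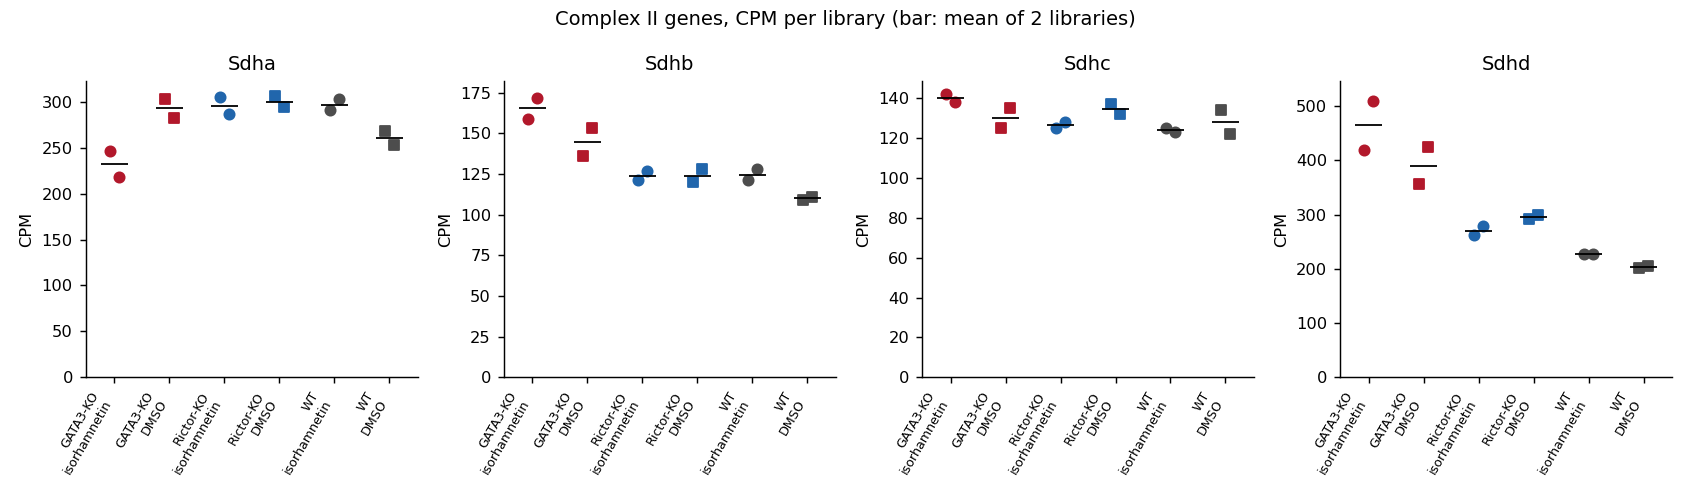
CPM of the 4 complex II genes, with 1 point per library, squares for DMSO, circles for isorhamnetin and a bar at the mean of 2 libraries. Sdhd lies at 356 to 510 CPM in the GATA3-KO libraries and at 202 to 228 CPM in WT, while Sdha is lowest in GATA3-KO with isorhamnetin, at 246 and 218 CPM.

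In complex III, the largest rise was that of Uqcc2, a factor needed for the assembly of the complex, with 91.2 and 107 CPM in GATA3-KO with DMSO and 41.3 and 39.4 CPM in WT with DMSO (log2 fold change 1.30, SE 0.12, adjusted p = 7.18e-07). Uqcrq, a small subunit, had 212 and 250 CPM in GATA3-KO and 153 and 156 CPM in WT (0.58, SE 0.09, adjusted p = 0.00014). Uqcrfs1, the Rieske iron-sulfur protein, had 175 and 182 CPM in GATA3-KO and 132 and 125 CPM in WT (0.47, SE 0.08, adjusted p = 0.000179). Uqcrc1 and Uqcrb were the members of the complex that did not pass the test, with log2 fold changes of 0.17 and -0.11. In complex IV, Cox7a2l, a protein that joins complexes III and IV into supercomplexes, had 224 and 255 CPM in GATA3-KO and 94.7 and 95.3 CPM in WT (1.33, SE 0.11, adjusted p = 2.67e-07). Cox5b, a nuclear-encoded subunit on the matrix side, had 183 and 205 CPM in GATA3-KO and 124 and 135 CPM in WT (0.58, SE 0.09, adjusted p = 9.14e-05). Cox6c, a small transmembrane subunit, had 155 and 179 CPM in GATA3-KO and 110 and 121 CPM in WT (0.53, SE 0.10, adjusted p = 0.00036).

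In complex V, the 3 rises of smallest p were those of Atp5e, Atp5o_2 and Atp5h. Atp5e, the epsilon subunit, had 168 and 202 CPM in GATA3-KO with DMSO and 91.5 and 97.6 CPM in WT with DMSO (log2 fold change 0.97, SE 0.13, adjusted p = 5.1e-05). Atp5o_2, the identifier that carries the reads of the oligomycin sensitivity subunit, had 231 and 265 CPM in GATA3-KO and 158 and 156 CPM in WT (0.66, SE 0.09, adjusted p = 2.45e-05). Atp5h, a subunit of the peripheral stalk, had 191 and 228 CPM in GATA3-KO and 150 and 145 CPM in WT (0.51, SE 0.10, adjusted p = 0.000583). The subunits that form the catalytic head did not pass the test. Atp5a1, the alpha subunit, stood at 1240 and 1250 CPM in GATA3-KO and overlapped the 1240 and 1180 CPM of WT (0.04, SE 0.07, adjusted p = 0.703). Atp5b stood at 1920 and 2090 CPM in GATA3-KO and at 1850 and 1810 CPM in WT (0.13, SE 0.07, adjusted p = 0.154). The exon length is 2904 bases for Atp5a1 and 1916 for Atp5b, but 421 for Atp5e, 804 for Atp5h and 1121 for Atp5o_2. With the length trend taken out, given below, Atp5e remained among the larger rises and Atp5h and Atp5o_2 did not. How far length enters the contrast of these genes was not tested beyond that fit.

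With the length trend taken out, rises larger than 0.5 remained in GATA3-KO against WT for Cox6a2 (2.51), Ndufv3 (1.24), Cox7a2l (1.01), Uqcc2 (0.92), Ndufv2 (0.82), Sdhd (0.62), Atp5e (0.57) and Ndufb10 (0.54). Among them Ndufv3, Cox7a2l, Uqcc2, Ndufv2 and Ndufb10 lie on chromosome 17. All 631 tested genes of that chromosome had a median of 0.54 with the trend in place, as described below. Cox6a2 had 10 to 183 reads per library. The 7 members that fell in that fit were Ndufa10 (-0.50), Uqcrb (-0.49), Cox8a (-0.35), Ndufs5 (-0.24), Cox6a1 (-0.24), Atp5g2 (-0.20) and Cox5a (-0.19). Of these, Ndufa10 alone was past the threshold and lower with the trend in place. The median of complex IV reversed to -0.02.

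**Figure D4:**
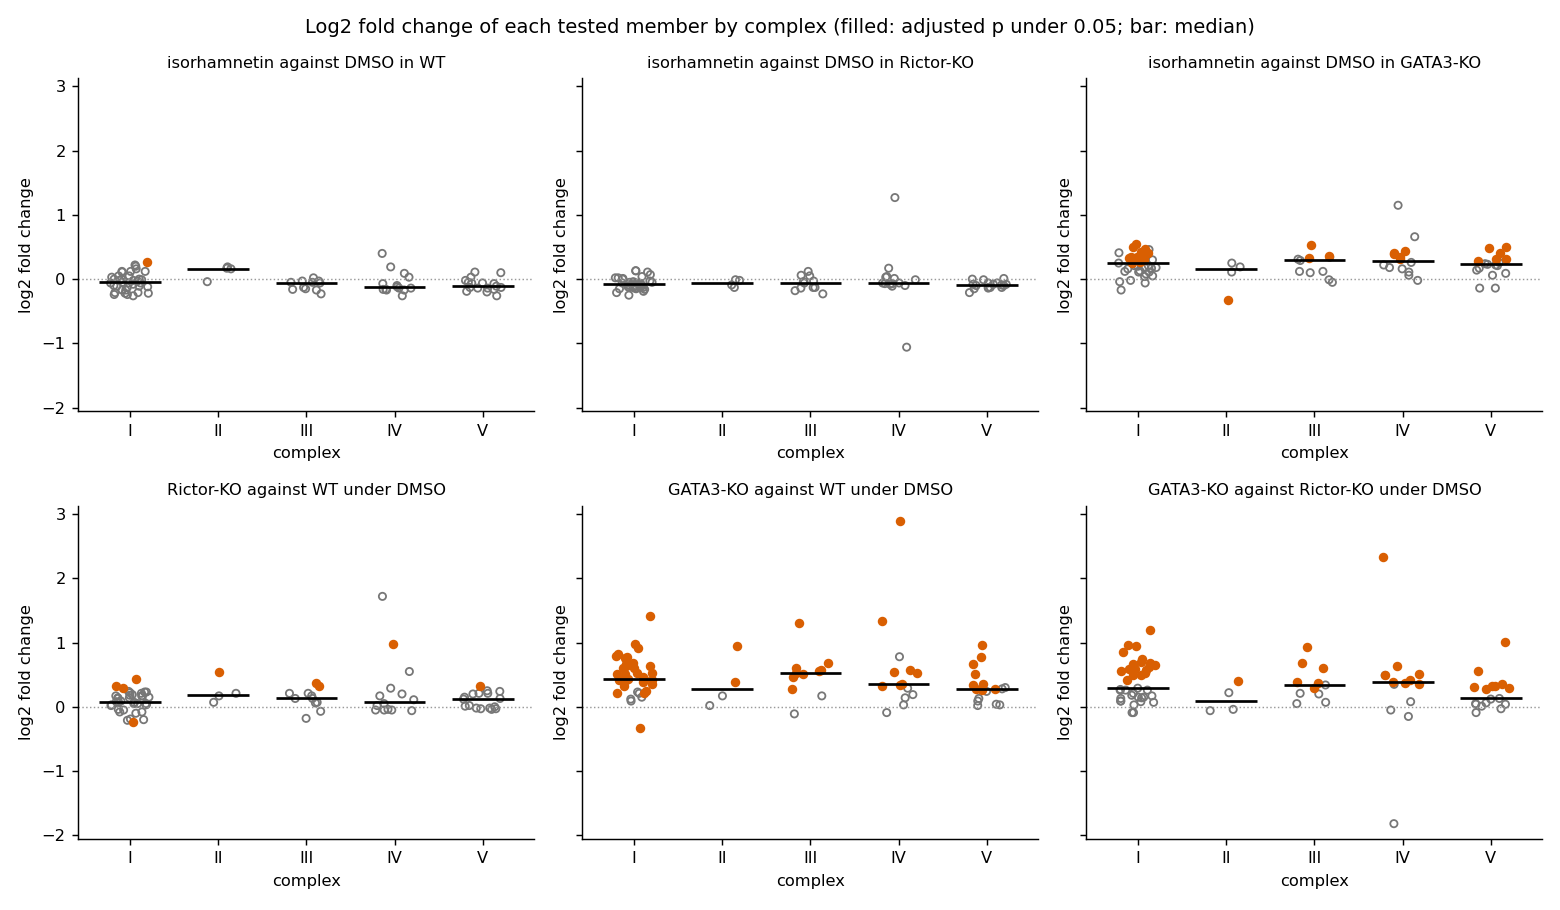
Log2 fold change of each tested member in the 3 responses to isorhamnetin (top) and the 3 comparisons of lines under DMSO (bottom), by complex, with filled points past the threshold and a bar at the median. Filled points are most frequent in GATA3-KO against WT, with 58 higher and 1 lower, and absent in the response of Rictor-KO.

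As a group, the members on chromosome 17 stood higher in GATA3-KO against WT than the others, with overlap. All 7 members on chromosome 17 (Ndufb10, Uqcc2, Ndufv3, Ndufa7, Ndufa11, Ndufv2 and Cox7a2l) rose in GATA3-KO against WT, by 0.66 to 1.41 with a median of 0.98. Over all 631 tested genes of that chromosome the median was 0.54 and 67.2% were called, 373 higher and 51 lower, beside -0.01 and 53.1% over the genes of other chromosomes. The other 76 members had a median of 0.38 and a range of -0.33 to 2.89, with 51 higher and 1 lower. In GATA3-KO against Rictor-KO the 7 members also all rose, with a median of 0.86, where the 631 genes had a median of 0.47. A split of the chromosome at 70 Mb, chosen after the values were seen, divided the lines. The 550 genes before it had medians of 0.57 in GATA3-KO against WT and 0.00 in Rictor-KO against WT. The 81 genes beyond it had medians of 0.40 in GATA3-KO against WT and 0.51 in Rictor-KO against WT. Cox7a2l is the member beyond that point, and it stood at 201 and 173 CPM in Rictor-KO with DMSO, against 94.7 and 95.3 CPM in WT with DMSO (log2 fold change 0.98, SE 0.11, adjusted p = 6.67e-06).

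**Figure D5:**
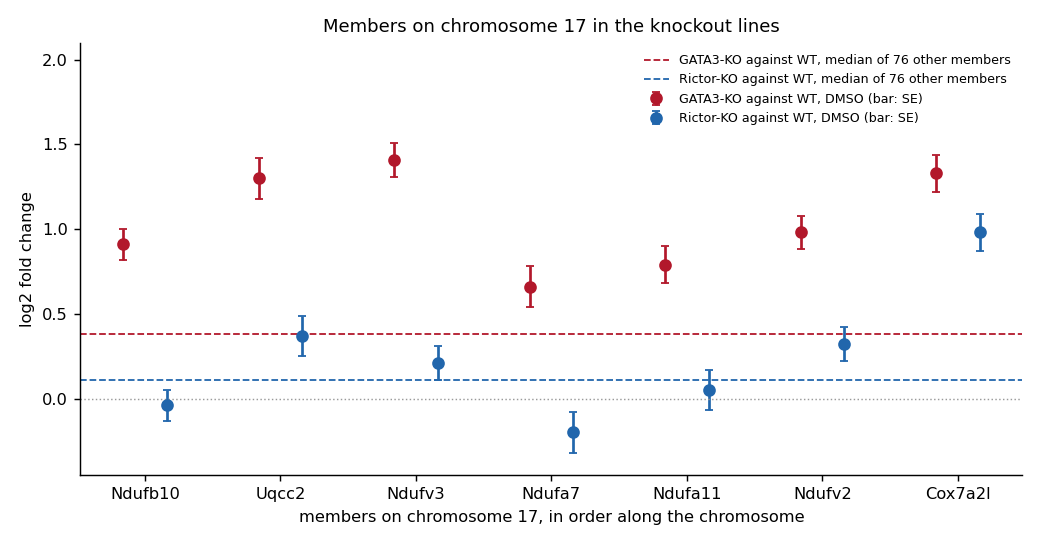
Log2 fold change (bars are SE) of the 7 members on chromosome 17, in their order along it, in GATA3-KO against WT and in Rictor-KO against WT, with dashed lines at the medians of the 76 other members. All 7 lie at 0.66 or above in GATA3-KO, while in Rictor-KO the last one, Cox7a2l, stands apart at 0.98 and the other 6 lie at or under 0.37.

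The sequences before the RefSeq start of 3 of these genes are shown because their transcripts had the largest fold changes of the 7, and because 2 of them lie before the 70 Mb point and 1 beyond it. They are RefSeq sequences of GRCm38.p6 in the direction of the gene, limited to bases that no annotated exon covers, with a match to the motif of NRF1, a transcription factor known to bind promoters of respiratory genes, in capitals. The stretch of Uqcc2 is chr17:27133917-27134141 on the minus strand, that of Ndufv3 is chr17:31519981-31520114 on the plus strand, and that of Cox7a2l is chr17:83514334-83514583 on the minus strand. The RefSeq start of Cox7a2l lies inside the gene as the count tables give it, which is chr17:83501918-83517330, so its stretch is within that longer gene.
Uqcc2: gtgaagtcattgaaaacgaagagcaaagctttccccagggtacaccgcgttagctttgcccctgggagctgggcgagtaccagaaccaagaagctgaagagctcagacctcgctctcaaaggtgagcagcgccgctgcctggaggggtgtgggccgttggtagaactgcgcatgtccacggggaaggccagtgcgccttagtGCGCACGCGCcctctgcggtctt
Ndufv3: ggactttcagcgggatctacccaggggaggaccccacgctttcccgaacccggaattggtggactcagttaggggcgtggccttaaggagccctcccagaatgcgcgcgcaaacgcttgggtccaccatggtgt
Cox7a2l: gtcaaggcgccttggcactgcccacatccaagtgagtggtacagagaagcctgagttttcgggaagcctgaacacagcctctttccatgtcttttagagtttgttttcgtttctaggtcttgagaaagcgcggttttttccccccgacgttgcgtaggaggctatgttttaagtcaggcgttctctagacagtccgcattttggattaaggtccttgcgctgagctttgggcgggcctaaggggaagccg
The stretch of Uqcc2 held 1 match to the NRF1 motif, searched as GCGCA, any base, then GCGC, and the other 2 held none. Windows of 250 bases before to 50 after the gene start were searched on both strands. A gene was counted if any of its windows matched. The motif was held by 17 of the 70 members with a RefSeq window (24.3%), some of them untested. It was held by 12.1% of 9370 tested genes and 5.19% of all 27025 genes with a window. AAGATGGCG, the motif of the factor YY1, was found in 10% of these members and 3.79% of these tested genes. CCGGAAG, the motif of ETS factors, was found in 24.3% of the members and 21.1% of the tested genes. The E-box CACGTG was found in 10% of the members and 11.8% of the tested genes. A match is a description of the letters and not a binding site.

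The comparison of GATA3-KO with Rictor-KO under DMSO sets the knockout lines side by side. Of 83 members 41 rose and 0 fell in GATA3-KO (49.4%), with a median log2 fold change of 0.30, beside 30.1% called among all tested genes, 15.4% higher and 14.7% lower. The members rose in 18 of 37 cases in complex I, 1 of 4 in complex II, 6 of 11 in complex III, 8 of 14 in complex IV and 8 of 17 in complex V. Ndufa2, an accessory subunit of complex I, had 85.1 and 96.3 CPM in GATA3-KO and 49.7 and 42.9 CPM in Rictor-KO (0.97, SE 0.12, adjusted p = 4.68e-05). Atp5e had 168 and 202 CPM in GATA3-KO and 102 and 81.2 CPM in Rictor-KO (1.01, SE 0.13, adjusted p = 0.000148). Cox4i1, the subunit through which complex IV is regulated by nucleotides, had 588 and 697 CPM in GATA3-KO and 467 and 446 CPM in Rictor-KO (0.49, SE 0.10, adjusted p = 0.00271). In each of these 3 the groups did not overlap, which naming them by small p makes likely.

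Further rises in GATA3-KO against Rictor-KO were those of Ndufv3 (1.20), Ndufb10 (0.95), Uqcc2 (0.93), Uqcr11 (0.68), Cox5b (0.64), Uqcrh (0.61), Cox6c (0.51) and Sdhd (0.40). Without GATA3-KO DMSO replicate 2 the count was 23, and without Rictor-KO DMSO replicate 2 it was 26. Without GATA3-KO DMSO replicate 2, Sdhd lost its call at an adjusted p of 0.115. Uqcrh lost its call without either of these libraries, at an adjusted p of up to 0.0978. With the length trend taken out 19 rose and 7 fell, with a median of 0.06. Of all 11808 tested genes 1591 were higher and 1538 lower in that fit.

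Under TMM scaling, the comparison of Rictor-KO with WT under DMSO called a smaller share of the members than of genes at large. Of 83 members 8 rose and 1 fell (10.8%), with a median log2 fold change of 0.12, beside 40% called among all tested genes, 19.3% higher and 20.7% lower. Cox7a2l, given above, rose most. Sdhd had 291 and 299 CPM in Rictor-KO and 202 and 205 CPM in WT (0.54, SE 0.10, adjusted p = 0.000786). Ndufs7, a core iron-sulfur subunit of complex I, had 75.7 and 75.6 CPM in Rictor-KO and 58.2 and 54.4 CPM in WT (0.43, SE 0.08, adjusted p = 0.000664). These 3 kept their call whichever of the 12 libraries was left out. The other rises were Uqcc2 (0.37), Atp5o_2 (0.33), Ndufv2 (0.32), Uqcc1 (0.32) and Ndufs8 (0.30), and Ndufa10 fell (-0.24). Each of those 6 lost its call without at least 1 library of WT with DMSO, at adjusted p-values of up to 0.145. Uqcc2, Ndufs8 and Ndufa10 also lost it without Rictor-KO DMSO replicate 1, Uqcc2 at an adjusted p of 0.221, and Ndufv2, Uqcc1 and Ndufa10 without Rictor-KO DMSO replicate 2. Without WT DMSO replicate 1 the count was 4, and without replicate 2 it was 5. With library totals alone as the scale 38 rose and 0 fell, with a median of 0.28 where that of all genes was 0.15. Of all 11808 genes 5307 were then called, so the smaller share among the members did not hold on that scale.

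The responses to isorhamnetin ask what 6 h of the compound changed within each line. In GATA3-KO, 27 of 83 members rose and 1 fell (33.7%), with a median log2 fold change of 0.24, beside 26.2% called among all tested genes, 10.2% higher and 15.9% lower. Rises came from complex I (13 of 37), complex III (3 of 11), complex IV (5 of 14) and complex V (6 of 17). Complex II gave the fall and no rise. Among the core subunits of complex I 2 of 7 rose, with a median of 0.11, and among its other subunits 11 of 30, with a median of 0.26. With the length trend taken out, given below, the core subunits Ndufs8 and Ndufv2 were called higher, and fewer than 11 of the other subunits were.

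Uqcrq had 308 and 357 CPM in GATA3-KO with isorhamnetin and 212 and 250 CPM in GATA3-KO with DMSO (log2 fold change 0.53, SE 0.09, adjusted p = 0.00196). Cox4i1 had 753 and 925 CPM with isorhamnetin and 588 and 697 CPM with DMSO (0.39, SE 0.10, adjusted p = 0.0145). Atp5md, a small membrane subunit of the ATP synthase, had 177 and 237 CPM with isorhamnetin and 131 and 164 CPM with DMSO (0.49, SE 0.13, adjusted p = 0.0136). In all 3, which were named by small p, the lower isorhamnetin value was above the higher DMSO value. The 2 libraries of a group lay far apart. Ndufs8, a core iron-sulfur subunit of complex I, had 164 and 177 CPM with isorhamnetin and 116 and 138 CPM with DMSO (0.42, SE 0.09, adjusted p = 0.00565). Ndufb9, an accessory subunit of complex I, had 113 and 138 CPM with isorhamnetin and 81.5 and 99.5 CPM with DMSO (0.47, SE 0.11, adjusted p = 0.00652). Ndufb4, another accessory subunit, had 86.3 and 102 CPM with isorhamnetin and 64.3 and 75.4 CPM with DMSO (0.43, SE 0.10, adjusted p = 0.00666). Other rises past the threshold were those of Ndufb2 (0.55), Ndufa7 (0.50), Atp5e (0.50), Cox7b (0.44), Uqcr11 (0.36), Cox7a2l (0.35), Uqcc2 (0.33) and Atp5h (0.31).

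Sdha went the other way in GATA3-KO. The gene lies at chr13:74322254-74350280 (GRCm38). It had 246 and 218 CPM with isorhamnetin and 303 and 283 CPM with DMSO (log2 fold change -0.33, SE 0.08, adjusted p = 0.0109). The other 3 genes of complex II did not pass the test there, with log2 fold changes of 0.25 for Sdhd, 0.19 for Sdhb and 0.11 for Sdhc. In the authors' deposited table the log2 fold change of Sdha was -0.32 with a false discovery rate of 0.05.

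These counts changed when single libraries were left out. Without GATA3-KO DMSO replicate 1, or without GATA3-KO isorhamnetin replicate 2, 1 member remained past the threshold, and without GATA3-KO DMSO replicate 2 there were 48. Uqcrq kept its call in all 12 of these runs, with an adjusted p of up to 0.0426. Every other member lost its call without either of the first 2 libraries, Sdha at an adjusted p of up to 0.151. Differences between replicate 1 and replicate 2 correlated at 0.69 between GATA3-KO with isorhamnetin and with DMSO. The labels do not pair these libraries. With replicate number as a block in the fit, given below, the count was larger. With the length trend taken out 9 rose and 2 fell, with a median of 0.06. Of all 11808 tested genes 1178 were higher and 1562 lower in that fit. The 9 were Ndufb2 (0.61), Atp5md (0.46), Uqcrq (0.42), Ndufb8 (0.35), Ndufv2 (0.28), Ndufs8 (0.25), Ndufa7 (0.25), Ndufb9 (0.24) and Ndufb4 (0.23), and the 2 were Sdha (-0.36) and Ndufa10 (-0.25).

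In WT cells, isorhamnetin moved many genes but few of these in the edgeR fit used throughout. Of 83 members 1 rose and 0 fell (1.2%), with 10 at an unadjusted p under 0.05, beside 38.1% called among all tested genes, 19.8% higher and 18.3% lower. Ndufs8 had 107 and 105 CPM in WT with isorhamnetin and 89.5 and 88.6 CPM in WT with DMSO (log2 fold change 0.26, SE 0.09, adjusted p = 0.0418), and it lost this call without any 1 of the 4 WT libraries. The median of the members was -0.06 with TMM scaling and 0.10 with library totals alone, where that of all genes was 0.01 and 0.17. DESeq2 called 1 higher and 3 lower. The count was larger with library totals alone, with the compared libraries alone and with replicate number as a block, as given below. Of all 11808 genes, those fits called 4845, 5725 and 6204. Sdha had 291 and 303 CPM in WT with isorhamnetin and 268 and 253 CPM in WT with DMSO (0.19, SE 0.08, adjusted p = 0.0892). Cox4i1 had 371 and 368 CPM with isorhamnetin and 445 and 439 CPM with DMSO (-0.26, SE 0.10, adjusted p = 0.06).

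In Rictor-KO cells no member passed the threshold by edgeR or DESeq2, 3 had an unadjusted p under 0.05, and 1.91% of all tested genes were called, 1.43% higher and 0.483% lower. The median of the members was -0.07. Uqcrq had 190 and 200 CPM in Rictor-KO with isorhamnetin and 183 and 175 CPM in Rictor-KO with DMSO (log2 fold change 0.12, adjusted p = 0.621). Sdha had 305 and 287 CPM with isorhamnetin and 306 and 295 CPM with DMSO (-0.02, adjusted p = 0.945).

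The responses were then compared between lines by interaction terms. The response of GATA3-KO exceeded that of WT in 21 members and fell below it in 1 (26.5% of 83), with a median difference of 0.29, beside 28% called among all tested genes, 12.4% higher and 15.5% lower. The share among the members was thus near that of all genes, and the directions were uneven, 21 to 1 among the members and 1470 higher to 1833 lower among all genes. An uneven direction was also seen in the 496 tested genes of up to 1000 bases, members included, with 24% higher and 1.41% lower. The smallest p-values were those of Uqcrq (difference 0.68, SE 0.13, adjusted p = 0.00215), Cox4i1 (0.64, SE 0.14, adjusted p = 0.00539), Sdha (-0.53, SE 0.12, adjusted p = 0.00552), Atp5md (0.75, SE 0.18, adjusted p = 0.00784) and Ndufa7 (0.67, SE 0.17, adjusted p = 0.00878). The call of Ndufa7 was lost without WT DMSO replicate 2 or GATA3-KO isorhamnetin replicate 2, at an adjusted p of up to 0.0559, and the other 4 kept theirs in all 12 runs. Counts without 1 library ran from 4, without GATA3-KO isorhamnetin replicate 2, to 38, without GATA3-KO DMSO replicate 2. Within that range stood 5 without WT DMSO replicate 2, 8 without WT isorhamnetin replicate 2, 8 without GATA3-KO DMSO replicate 1, 13 without WT DMSO replicate 1, 13 without WT isorhamnetin replicate 1 and 35 without GATA3-KO isorhamnetin replicate 1. With the length trend taken out, 6 were higher (Ndufb2, Cox4i1, Uqcrq, Ndufs4, Ndufb8 and Atp5md) and 3 lower (Sdha, Ndufs7 and Cox5a). Of all 11808 tested genes 1568 were higher and 1518 lower in that fit. With replicate number as a block in the fit, given below, the count was larger.

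In the authors' deposited table, the members with a false discovery rate under 0.05 were 28 higher and 0 lower for isorhamnetin in GATA3-KO, 0 in Rictor-KO, and 2 higher and 6 lower in WT. Over all genes of that table, 2855 passed the limit in GATA3-KO, 156 in Rictor-KO and 5241 in WT.

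The response of Rictor-KO did not differ from that of WT in any member past the threshold by edgeR, where 3 had an unadjusted p under 0.05 and 13.8% of all genes were called, 6.65% higher and 7.11% lower. DESeq2 gave 0 as well. Between the responses of GATA3-KO and Rictor-KO, edgeR called no member and 0% of all genes, although 42 members had an unadjusted p under 0.05 and DESeq2 called 16, all higher in GATA3-KO. Over all tested genes DESeq2 called 284 higher and 770 lower there. The median difference of the members by edgeR was 0.31. With replicate number as a block in the fit, 3175 of 11808 genes were called for that difference, members among them, as given below.

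Tissue-specific isoforms were low or absent. Cox6b2, Cox7b2, Cox8b and Cox8c had 0 reads in all 12 libraries, while Cox8a, the widely expressed partner of the last 2, averaged 428 RPKM. Cox5b-ps had 5 reads in all, Atp5o_1 6 and Ndufa4l2, known as a hypoxia-induced relative of Ndufa4, 14, and these 7 genes were not tested. Cox6a2, the heart and muscle isoform of Cox6a1, had 2.3 and 2.84 CPM in GATA3-KO with DMSO, 0.762 and 0.255 CPM in Rictor-KO and 0.353 and 0.337 CPM in WT. It rose in GATA3-KO against WT (log2 fold change 2.89, SE 0.52, adjusted p = 0.000342) and against Rictor-KO (2.34, SE 0.50, adjusted p = 0.00313), on 10 to 183 reads per library. Per kilobase it remained far below Cox6a1 in GATA3-KO with DMSO, at 3.79 against 459 RPKM. Of a list of 4 muscle markers, Tnnt2 exceeded 1 CPM, and the list summed to 66.4 and 75.6 CPM in GATA3-KO with DMSO, 12.1 to 23.6 CPM in Rictor-KO and 2.5 to 3.11 CPM in WT, and their part in the level of Cox6a2 was not tested. Cox7a1, the muscle isoform beside Cox7a2, ranged from 0.823 to 3.25 CPM, and Cox4i2 from 0.0509 to 0.68 CPM, and neither passed the test in any of the 9 comparisons. Ndufa4 counts here with complex I by its symbol, although its protein is now placed in complex IV.

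Among factors that assemble the complexes, those of complexes I and V were mostly higher in GATA3-KO. Their values are given with the exon length trend in place, and its part in them was not tested. In GATA3-KO against WT under DMSO, 13 of 15 tested assembly factors of complex I rose and 0 fell, with a median log2 fold change of 0.51, and all 5 factors of complex V rose (median 0.58), where 26.8% of all tested genes were higher and 27.1% lower. Of 23 factors of complex IV 9 rose and 3 fell (0.21), and of 7 factors of complexes II and III 2 rose and 1 fell (0.32), the share of rises in the last being near that of all genes. Fmc1, a factor of complex V assembly, had 20.7 and 28.5 CPM in GATA3-KO and 9.49 and 10.2 CPM in WT (1.32, SE 0.15, adjusted p = 6e-06). Tmem242, which acts in the same assembly and lies on chromosome 17, had 93.9 and 112 CPM in GATA3-KO and 41.7 and 42.5 CPM in WT (1.29, SE 0.10, adjusted p = 1.89e-07). Cox14, a factor of complex IV assembly, had 52.3 and 58.5 CPM in GATA3-KO and 27.7 and 31.2 CPM in WT (0.91, SE 0.12, adjusted p = 1.67e-05). With isorhamnetin in GATA3-KO, 4 of the 15 factors of complex I and 4 of the 5 of complex V rose and 0 fell, where 10.2% of all tested genes were higher. In WT none of these 20 passed the threshold with the compound, where 38.1% of all tested genes were called. In Rictor-KO none passed it either, where the share of all tested genes was 1.91%.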

How the data were processed

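RNA-seq was deposited for 12 libraries of J774.1 cells, 2 in each of 6 groups. The authors' deposited tables give whole-number counts of reads per gene, on the build GRCm38 per the submitters' processing notes. For the aligner and the counter, names and settings are not given in the sources used here. Among 12371 gene values of 1 to 4 reads, 81.3% were even, as where both mates of a pair are counted, so counting error is larger than the totals imply. The authors also deposited log2 fold changes and adjusted p-values for the 3 responses to isorhamnetin, made with a test that their tables do not name.

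Total exon counts were fitted with edgeR 4.0.16 in R 4.3.3 (TMM, filterByExpr, a robust quasi-likelihood F test, 1 mean for each of 6 groups, 6 residual degrees of freedom). Of 15156 genes with an exon read, 11808 were tested and 3348 fell under the filter. P-values were adjusted by Benjamini-Hochberg over all tested genes in each of 9 comparisons, and the threshold was 0.05. A fold change is a difference of log2 CPM, and RPKM is CPM per kilobase of the exon length in the tables. The library deviations add 0.5 CPM before the log. The script was tested on simulated data. Alternatives were other size factors, DESeq2 1.42.0, no filter, unique reads, the compared libraries alone, a trend over exon length taken out per library, a replicate block and leaving out each of 12 libraries.

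The members, the related lists, the comparisons and the alternatives were chosen with earlier results of these data known. In each comparison and complex, up to 3 called members of smallest p with a mean of at least 10 CPM were named, with all Sdh genes and paired isoforms, and likewise the genes of the related lists. Other members, among them Atp5a1, Atp5b, Uqcrb, Ndufb2 and those on chromosome 17, were named after their values were seen. Promoter windows came from RefSeq on GRCm38.p6, and 70 of 90 members matched one by symbol.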

Additional observations from a re-analysis of the deposited data

Results flagged for a closer look

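The response to isorhamnetin differed between GATA3-KO and WT cells, by an interaction term in edgeR's quasi-likelihood fit over 11808 genes, in 22 of the 83 tested members (26.5%), near the 28% called among all tested genes. The values are differences of log2 fold changes, GATA3-KO minus WT, with 2 libraries in each of the 4 groups. In complex I the response of GATA3-KO was the more positive one for Ndufa7 (0.67, adjusted p = 0.00878), Ndufb8 (0.57, adjusted p = 0.0174), Ndufb2 (0.55, adjusted p = 0.0341), Ndufs5 (0.54, adjusted p = 0.0105), Ndufb9 (0.52, adjusted p = 0.0201), Ndufs4 (0.48, adjusted p = 0.014), Ndufb7 (0.47, adjusted p = 0.0123) and Ndufb4 (0.47, adjusted p = 0.0232). The same held for Ndufa4 (0.44, adjusted p = 0.0497), Ndufa12 (0.42, adjusted p = 0.0354) and Ndufa13 (0.40, adjusted p = 0.0378). None of these 11 is among the 7 core subunits of complex I. Exon lengths of those 7 run from 983 to 3070 bases, where the median of the tested members is 1001 bases. The fit with the length trend taken out is given below, and the part of length in this was not tested beyond it.

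In complex III the difference was 0.68 for Uqcrq (adjusted p = 0.00215) and 0.53 for Uqcr11 (adjusted p = 0.0392). In complex IV it was 0.64 for Cox4i1 (adjusted p = 0.00539), 0.56 for Cox7b (adjusted p = 0.0291), 0.54 for Cox7c (adjusted p = 0.0437), 0.47 for Cox7a2 (adjusted p = 0.0274) and 0.40 for Cox6b1 (adjusted p = 0.0437). In complex V it was 0.75 for Atp5md (adjusted p = 0.00784), 0.70 for Atp5e (adjusted p = 0.0156) and 0.41 for Atp5j2 (adjusted p = 0.0316). Sdha of complex II stood alone with a difference of -0.53 (adjusted p = 0.00552). Libraries of GATA3-KO with isorhamnetin also had the largest median deviation of all genes of up to 1000 bases, 0.29 and 0.43, against 0.08 and 0.26 in GATA3-KO with DMSO. With that length trend taken out, Uqcrq, Cox4i1, Atp5md, Ndufb2, Ndufb8, Ndufs4 and Sdha of these 22 remained past the threshold, and the part of exon length in the other differences was not tested further.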

How the results depend on the processing

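Counts below are members past the threshold, higher and lower in that order. For isorhamnetin in GATA3-KO (27 and 1), taking out the exon length trend gave 11 (9 and 2), the compared libraries alone 18 (17 and 1), and leaving out 1 library 1 to 48. For isorhamnetin in WT (1 and 0), DESeq2 size factors in edgeR gave 3 (0 and 3), library totals alone 12 (12 and 0), DESeq2 4 (1 and 3), the length trend taken out 6 (3 and 3), the compared libraries alone 21 (5 and 16), and leaving out 1 library 0 to 6. For GATA3-KO against WT (58 and 1) the length trend taken out gave 39 (32 and 7) and leaving out 1 library 41 to 66. For GATA3-KO against Rictor-KO (41 and 0) these were 26 (19 and 7) and 23 to 47. For Rictor-KO against WT (8 and 1), library totals alone gave 38 (38 and 0), the compared libraries alone 14 (13 and 1), and leaving out 1 library 4 to 12. For the response of GATA3-KO minus that of WT (21 and 1), library totals alone gave 7 (6 and 1), the length trend taken out 9 (6 and 3), and leaving out 1 library 4 to 38. For the response of GATA3-KO minus that of Rictor-KO (0), DESeq2 gave 16, no filter 2 and leaving out 1 library 0 to 27. For that of Rictor-KO minus WT (0), library totals alone gave 1 (0 and 1). Beyond what each alternative changes, the cause was not tested. For isorhamnetin in Rictor-KO every alternative but the block gave 0.

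With the length trend taken out, GATA3-KO against WT reversed for Atp5g2 (-0.20), Atp5g3 (-0.03), Cox6a1 (-0.24), Cox6b1 (-0.05), Cox7a2 (-0.05), Cox8a (-0.35) and the complex IV median (-0.02). In all, 22 members turned from positive to negative there, of which 6 were called with the trend in place. After it was taken out 5 of the 22 were called lower, Ndufs5 (-0.24) and Cox5a (-0.19) with Cox6a1, Cox8a and Atp5g2. GATA3-KO against Rictor-KO reversed for Cox7a2 (0.00), Ndufa4 (-0.29) and the medians of complexes II (-0.06) and V (-0.01). The response of GATA3-KO minus that of WT reversed for the medians of complexes II (-0.14) and III (-0.01). Library totals alone reversed medians for isorhamnetin in WT (all members 0.10, complex I 0.11, III 0.10, IV 0.03, V 0.05), for the Rictor-KO minus WT difference of responses (all members -0.12, III -0.12, IV -0.07, V -0.11) and for complex II in that of GATA3-KO minus WT (-0.08). Leaving out 1 library put that complex II median between -0.05 and 0.16. Library totals alone moved the median of all genes by 0.17 for isorhamnetin in WT, where 3588 genes were then higher and 1257 lower, against 2336 and 2157 with TMM. The split was 4141 higher and 2547 lower in GATA3-KO against WT, 3670 and 1637 in Rictor-KO against WT, 874 and 2637 in the response of GATA3-KO minus that of WT, and 550 and 1384 in that of Rictor-KO minus WT. Of 68 called values of named members, 68 kept their call with DESeq2, with no filter, with unique reads and with the block, 67 with DESeq2 size factors, 66 with library totals alone, 62 with the compared libraries alone and 44 with the length trend taken out.

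Replicate numbers do not pair the samples by the labels, and 2 libraries of a group are too few to show it: the correlation of replicate 1 minus replicate 2 between isorhamnetin and DMSO over 7720 genes was 0.69 in GATA3-KO, 0.80 in Rictor-KO and -0.18 in WT. With the replicate block the counts were 54 (50 and 4) for isorhamnetin in GATA3-KO, 3 (1 and 2) in Rictor-KO and 31 (7 and 24) in WT, 48 (47 and 1) for the response of GATA3-KO minus that of WT, 50 (49 and 1) for GATA3-KO minus Rictor-KO and 9 (4 and 5) for Rictor-KO minus WT. Over all 11808 tested genes the block called 5176 for isorhamnetin in GATA3-KO, 1417 in Rictor-KO and 6204 in WT. For the differences it called 5321 for GATA3-KO minus WT, 3175 for GATA3-KO minus Rictor-KO and 3596 for Rictor-KO minus WT. With the pairing crossed in WT, added after the data were seen, the count for isorhamnetin in WT was 33 (7 and 26), beside 6386 over all genes.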

Other observations

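Enzymes that feed the respiratory chain were called in both directions. The lists of this section are given with the exon length trend in place, and its part in them was not tested. In GATA3-KO against WT under DMSO, 8 of 18 genes of the tricarboxylic acid cycle and pyruvate entry rose and 1 fell, with a median log2 fold change of 0.10, beside 0.41 for the 83 tested members. Over all tested genes 53.9% were called in that comparison, 26.8% higher, and the share called in this list was no larger. Fh1, fumarate hydratase, rose by 0.50 (SE 0.09, adjusted p = 0.000356) and Suclg1, a subunit of succinyl-CoA ligase, by 0.49 (SE 0.10, adjusted p = 0.000578). With isorhamnetin in GATA3-KO, where 26.2% of all tested genes were called, 2 of the 18 rose and 3 fell: Ogdh, of the oxoglutarate dehydrogenase complex, fell by 0.41 on the log2 scale (adjusted p = 0.00796), Dlat, of the pyruvate dehydrogenase complex, by 0.30 (adjusted p = 0.0307) and Cs, citrate synthase, by 0.24 (adjusted p = 0.0293). In Rictor-KO against WT, where 40% of all tested genes were called, 6 of the 18 rose and 0 fell. With isorhamnetin 2 rose in WT, and no gene of the list passed the threshold in Rictor-KO.

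Of 15 regulators of mitochondrial biogenesis, 5 rose and 3 fell in GATA3-KO against WT, near the 53.9% called among all tested genes. The same share holds as the background of the lists of coenzyme Q and of carriers, neither of which had a larger share called. Tfam, a factor that packages and transcribes mitochondrial DNA, rose by 0.49 (adjusted p = 0.000297), while Pprc1, a coactivator related to PGC-1, fell by 0.86 on the log2 scale (adjusted p = 1.27e-05). Ppargc1b, which encodes the coactivator PGC-1 beta, rose with isorhamnetin in WT (0.83, SE 0.15, adjusted p = 0.000704) and fell in GATA3-KO (-0.54, SE 0.15, adjusted p = 0.0184), and the difference of these responses was -1.36 (SE 0.21, adjusted p = 0.000517). In GATA3-KO against Rictor-KO, where 30.1% of all tested genes were called, none of the 15 rose and 5 fell. Of 15 genes of cytochrome c and coenzyme Q, 2 rose and 3 fell in GATA3-KO against WT, where Coq10b, a coenzyme Q binding protein, fell by 1.57 on the log2 scale (adjusted p = 2.22e-06). Of 10 carriers and inhibitors, 4 rose and 1 fell, with Higd1a, a hypoxia-induced partner of complex IV, at 0.70 (adjusted p = 7.46e-05) and Ucp2, an uncoupling protein, at -0.53 (adjusted p = 0.00313).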
